A study of Mus musculus with 8 samples.

Results

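The genes of 10 heat shock proteins and chaperones were followed through messenger RNA sequencing of the whole mouse cortex, 10 of the 22000 rows of the deposited count table. They were chosen by name, with earlier results of these libraries known, to be read by genotype and by run of animal numbers and to contrast stress-induced with constitutive chaperones. The stress-induced genes were taken to be Hspa1a, Hspa1b, Dnajb1, Hsph1, Hspb1 and Bag3 (6 genes), and the constitutive ones Hspa8, Hspa4, Hsp90aa1 and Hspa5 (4 genes). Hsp90aa1 was placed among the constitutive genes although heat can raise it further. The study set 4 cortices labelled Mef2c heterozygous against 4 labelled Mef2c wild type, each genotype with 2 males and 2 females and 1 library per mouse. Mef2c codes for a transcription factor of neurons and muscle. The labels give no age, strain or treatment, and the altered part of Mef2c is not given in the sources used here. The animal numbers in the sample titles fall into a lower run, called the first here, and a higher one, called the second, each with 1 animal of each sex and genotype. The labels do not say what the runs stand for, and they are used here only as groups of animal numbers.

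Chaperones bind unfolded or unfinished proteins and help them reach or regain their shape. The HSP70 proteins do so in cycles of ATP hydrolysis that J-domain proteins start and nucleotide exchange factors end, and HSP90 takes over many of their clients. In resting cells HSF1, the main heat shock transcription factor, is held inactive by chaperones; when unfolded proteins draw these away it binds heat shock elements, inverted repeats of the unit GAA, and induces a set of chaperone genes. The endoplasmic reticulum has its own sensor system, the unfolded protein response, whose classic target is Hspa5. Neurons express chaperones such as Hspa8 and Hsp90aa1 at high levels and are known to induce the inducible HSP70 genes poorly.

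Total counts per library lay between 16092773 and 17841377, and the 10 members together took 0.372% to 0.446% of them. Levels are given as CPM, read counts scaled to library size, with library sizes adjusted by TMM. The targeted gene Mef2c was at 1233, 1336, 1391 and 1255 CPM in the libraries labelled heterozygous and at 1038, 939, 999 and 1003 CPM in those labelled wild type. It was thus higher, not lower, under the heterozygous label, so directions by genotype are given for the labels, not for a measured loss. RNA integrity numbers were 8.6 to 8.9 in the first run and 8.6 to 9 in the second. Markers of excitatory cortical neurons such as Slc17a7 (1776 to 2030 CPM) and Tbr1 (230 to 277 CPM) were present in every library. In bulk tissue, fewer cells of a type and less RNA per cell cannot be told apart.

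Elements through which chaperone genes are known to be driven were looked for in the promoters of the members, and some members held none. The part of these elements in the levels of the members was not tested. Promoter windows from RefSeq (build GRCm38.p6), from 250 bases before to 50 bases after the start site, were at hand for 8 of the 10 members. Hspa8 and Hsp90aa1 had none. Hsph1 and Dnajb1 had 2 windows each, from different start sites, and the first one of Hsph1 is printed. The windows were searched on both strands for a heat shock element of 2 inverted units, GAANNTTC or TTCNNGAA, for one of 3 units, in which the next unit follows after any 2 bases, and for the ER stress element, CCAAT and CCACG with any 9 bases between them. A match of 3 units holds 2 overlapping matches of 2 units. The 250 bases before the start site are printed for 5 members, 5′ to 3′ on the strand of the gene, with matches to the 2-unit heat shock element or the ER stress element in capitals.
Hspa1b: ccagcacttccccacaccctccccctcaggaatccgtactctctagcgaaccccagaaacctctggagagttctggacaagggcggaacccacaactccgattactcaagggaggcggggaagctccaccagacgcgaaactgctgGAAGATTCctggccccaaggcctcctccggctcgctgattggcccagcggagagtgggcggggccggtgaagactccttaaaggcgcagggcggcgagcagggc
Hspa1a: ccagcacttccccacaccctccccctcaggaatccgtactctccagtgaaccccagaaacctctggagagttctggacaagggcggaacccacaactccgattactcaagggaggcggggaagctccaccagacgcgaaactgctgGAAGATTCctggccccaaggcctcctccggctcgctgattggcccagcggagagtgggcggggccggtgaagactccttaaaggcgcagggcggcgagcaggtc
Hsph1: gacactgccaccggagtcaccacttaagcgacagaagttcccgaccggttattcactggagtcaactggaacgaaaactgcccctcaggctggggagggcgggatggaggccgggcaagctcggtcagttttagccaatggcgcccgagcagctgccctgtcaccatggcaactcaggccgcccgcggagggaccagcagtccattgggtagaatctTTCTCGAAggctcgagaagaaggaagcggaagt
Hspb1: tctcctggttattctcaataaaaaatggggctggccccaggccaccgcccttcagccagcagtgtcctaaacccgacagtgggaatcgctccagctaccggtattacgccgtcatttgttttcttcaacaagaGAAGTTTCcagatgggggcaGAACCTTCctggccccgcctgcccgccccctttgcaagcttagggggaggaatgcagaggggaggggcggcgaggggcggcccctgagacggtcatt
Hspa5: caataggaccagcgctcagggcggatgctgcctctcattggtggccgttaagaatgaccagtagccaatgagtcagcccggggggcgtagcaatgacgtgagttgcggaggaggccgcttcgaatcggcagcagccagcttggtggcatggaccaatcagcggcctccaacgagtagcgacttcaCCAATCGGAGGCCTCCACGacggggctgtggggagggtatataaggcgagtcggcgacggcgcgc

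The printed stretches are chr17:34959239-34959488 for Hspa1b, chr17:34972157-34972406 for Hspa1a and chr5:149636337-149636586 for Hsph1, all on the minus strand, and chr5:135887669-135887918 for Hspb1 and chr2:34771840-34772089 for Hspa5, both on the plus strand. The stretches of Hspa1a and Hspa1b differed at 3 of 250 positions and held the same single 2-unit element at bases -104 to -97. Hspb1 held 2 such elements, at -117 to -110 and at -97 to -90. Hsph1 held one at -33 to -26 and, after the start site, the only 3-unit element among the members, TTCTGGAAAGTTC at bases 37 to 49 (chr5:149636288-149636300, minus strand). Counted from the other start site of Hsph1, the same elements lay at -54 to -47 and at 16 to 28. Bag3 held a 2-unit element at bases 43 to 50. Dnajb1 and Hspa4 held neither element in their windows. The ER stress element was found in Hspa5 alone, at -65 to -47. Of 32851 promoter windows of the same length, 15.1% held a 2-unit heat shock element, 0.603% a 3-unit one and 0.119% the ER stress element. A match is a stretch of letters, not a measured binding site. The sequence TATAAA was also searched for and was in none of the members' windows, against 13.6% of all windows.

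**Figure D1:**
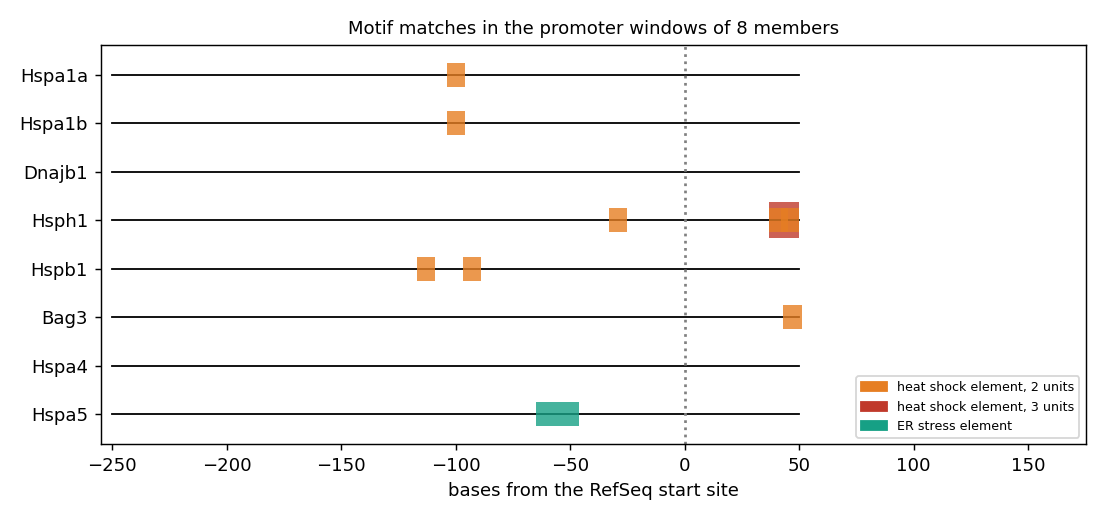
Motif matches in the promoter windows of 8 members, the first window where a member had 2. The x axis gives the distance in bases from the RefSeq start site, each line is 1 window of 300 bases, and boxes mark matches on either strand to the 2-unit heat shock element, the 3-unit heat shock element and the ER stress element. Matches of 2 units are present in Hspa1a, Hspa1b, Hsph1, Hspb1 and Bag3, and the ER stress element is in Hspa5.

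Levels per length of exon separated the classes only in part. Hspa8, the constitutive cytosolic HSP70, stood at a mean of 410 CPM per kb of exon (range over the 8 libraries 385 to 464), and Hsp90aa1, the cytosolic HSP90 gene that heat can raise further, at 288 (265 to 332). Hspa5, the HSP70 of the endoplasmic reticulum, followed at 75.1 (64.1 to 83.2). Hsph1, an HSP110 that exchanges the nucleotide of HSP70, had 48.2 (42.4 to 57.2), and the constitutive HSP110 gene Hspa4 had 41.8 (39.1 to 44.7), so that the ranges of this pair overlapped. Dnajb1, the J-domain partner of HSP70 that heat induces, stood at 22.6 CPM per kb (at most 24.9). The small heat shock protein gene Hspb1 had 5.57 CPM per kb (3.95 to 7.82). Bag3, a co-chaperone that links HSP70 to autophagy, had 3.28 (2.33 to 4.01), Hspa1b 2.49 (1.18 to 4.15) and Hspa1a 2.24 (1.40 to 2.93). The last 3 overlapped one another, and Bag3 and Hspa1b also overlapped Hspb1. The lowest members rested on 59 to 200 reads (Hspa1b), 67 to 151 (Hspa1a), 71 to 139 (Hspb1) and 104 to 177 (Bag3) per library. All 10 members passed the filter on low counts.

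**Figure D2:**
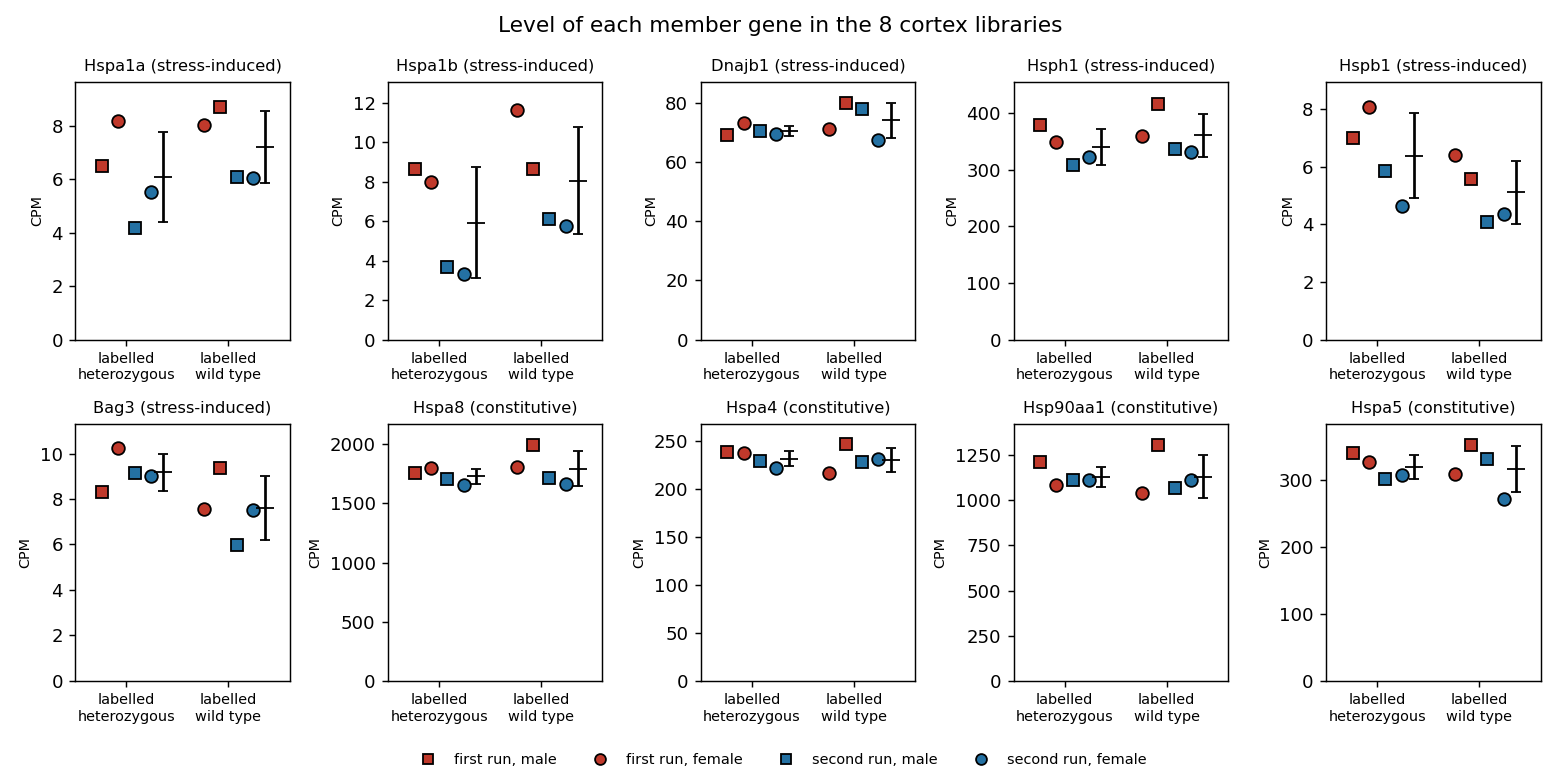
Level of each member in the 8 libraries. The y axis is CPM from 0, the x axis the genotype label, squares are males, circles females, red the first and blue the second run of animal numbers, and the bar beside each group is its mean ± SD (n = 4). For Hspa1a, Hspa1b, Hsph1 and Hspa8 each blue point lies below each red one.

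The comparison of the genotypes asked whether chaperone transcripts differ with the Mef2c label. By the quasi-likelihood test of edgeR, adjusted by Benjamini-Hochberg over 13879 genes, 0 of 10 members were called at a threshold of 0.05, against 0.267% of all genes (37), and DESeq2's Wald test and limma-voom called 0 too. At an unadjusted p under 0.05 there were 0 members, against 7.24% of all genes (3.7% with a fold change below 0). With run as a further term in edgeR, Hspa1b alone had an unadjusted p under 0.05 and was not called. The share of all genes at that threshold was not taken in that fit. The lowest adjusted p from edgeR was 0.773, for Bag3. Of the 10, 6 had a log2 fold change below 0 (50.5% of all genes had), and the median was -0.03 beside -0.001 for all genes. No member was free of overlap between the genotypes, against 4.55% of all genes (2.38% lower under the heterozygous label).

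Among the stress-induced members the genotype differences went both ways. Hspb1 had 6.39 ± 1.47 CPM (SD, n = 4) under the heterozygous label and 5.10 ± 1.09 CPM under the wild type label, a log2 fold change of 0.32 ± 0.20 (SE). Bag3 was at 9.18 ± 0.817 against 7.61 ± 1.40 CPM (0.27 ± 0.15 SE). Hspa1b was at 5.91 ± 2.81 against 8.04 ± 2.72 CPM (-0.44 ± 0.41 SE) and Hspa1a at 6.10 ± 1.69 against 7.21 ± 1.35 CPM (-0.25 ± 0.19 SE). All 4 values moved by over 1.5 times when 1 library was left out. Hspb1 ranged from 0.17 (without heterozygous replicate 2) to 0.48 (without heterozygous replicate 4) and Bag3 from 0.17 (without wild type replicate 3) to 0.43 (without wild type replicate 2). Hspa1b ranged from -0.76 (without heterozygous replicate 1) to -0.17 (without wild type replicate 1) and Hspa1a from -0.42 (without heterozygous replicate 2) to -0.09 (without heterozygous replicate 3). With run as a further term, Hspa1b had -0.49 ± 0.16 (SE), a smaller error from the same libraries, with an adjusted p of 0.247 in edgeR. Hsph1, with 340 ± 31.6 against 361 ± 38.4 CPM, had -0.08 ± 0.08 (SE; -0.14 without heterozygous replicate 1 and -0.01 without wild type replicate 2) and Dnajb1, with 70.5 ± 1.73 against 74.0 ± 5.81 CPM, had -0.07 ± 0.06 (SE).

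The constitutive members lay close to 0 in the genotype comparison. Hspa8 was at 1729 ± 63.4 CPM under the heterozygous and 1796 ± 147 CPM under the wild type label (-0.05 ± 0.05 SE). Hspa4 had 232 ± 7.79 against 231 ± 12.6 CPM, Hsp90aa1 1130 ± 54.6 against 1132 ± 119 CPM and Hspa5 319 ± 18.0 against 316 ± 34.5 CPM. Their log2 fold changes lay between -0.05 and 0.02, with overlapping groups.

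The runs of animal numbers were named when the members were chosen, so the values by run are a description and support nothing. All 10 members were lower in the second run, against 49.1% of all genes, with a median log2 fold change of -0.16 beside 0.002 for all genes. The median was -0.36 for the 6 stress-induced members and -0.10 for the 4 constitutive ones. The members called by edgeR at an adjusted p under 0.05 were 2, Hspa1b and Hsph1, where 0.382% of all genes (53) were called, 0.209% with a lower level in the second run. At an unadjusted p under 0.05 there were 6 members, against 10.2% of all genes (5.07% lower). No overlap between the runs was seen for 4 members, Hspa1a, Hspa1b, Hsph1 and Hspa8, against 5.46% of all genes (2.9% lower).

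Hspa1b, an inducible HSP70 gene without introns, had the widest difference. In the first run it was at 8.65 and 8.01 CPM in the libraries labelled heterozygous and at 11.6 and 8.64 CPM in those labelled wild type. In the second run it was at 3.67 and 3.30 CPM and at 6.13 and 5.76 CPM. Each library of the second run was below each of the first, and the 2 heterozygous libraries of the second run were the lowest of all. The means were 9.23 ± 1.63 and 4.71 ± 1.44 CPM (SD, n = 4), and the log2 fold change of the second against the first run was -0.99 ± 0.16 (SE). Without heterozygous replicate 4 the log2 fold change was -0.89 and the gene was no longer called. Within the libraries labelled wild type alone it was -0.77, also not called, with 2 libraries a run. Within each genotype its runs did not overlap, as for 38.6% of all genes in the heterozygous (19.4% lower) and 35% in the wild type libraries (17.6% lower).

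Hspa1a, the neighbouring copy, followed the same order. It was at 6.52, 8.18, 8.03 and 8.70 CPM in the first run and at 4.16, 5.54, 6.07 and 6.06 CPM in the second, without overlap. The log2 fold change was -0.53 ± 0.15 (SE) and did not pass. In GENCODE release M21 (GRCm38), Hspa1a lies at chr17:34969190-34972156 and Hspa1b at chr17:34956436-34959238, both on the minus strand with 1 exon, 9951 bases apart. Their transcripts share sequence, since 49.9% of all stretches of 100 bases of Hspa1b occur unchanged in Hspa1a, and the antisense gene Gm20481 overlaps Hspa1a. How the counting treated reads that fit both copies is not given in the sources used here, so the split between the copies is uncertain. With the reads of both copies summed, which was added once their values were known, the log2 fold change between the runs was -0.76 ± 0.11 (SE) and by genotype -0.35 ± 0.31 (SE). Hspa1b took 37.3% (95% exact binomial interval 29.8 to 45.4) of the summed reads in heterozygous replicate 4, the lowest share, and 59.2% (53.7 to 64.5) in wild type replicate 1, the highest. These intervals cover counting error only.

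Hsph1 and Hspb1 were also lower in the second run. Hsph1 was at 380, 350, 360 and 416 CPM in the first run and at 308, 323, 336 and 332 CPM in the second, without overlap, a difference of -13.6% of the mean. Its log2 fold change was -0.21 ± 0.05 (SE). The call of Hsph1 was narrow: it was kept in 1 of 8 fits that left out a library, the one without wild type replicate 1, and the log2 fold change lay between -0.24 and -0.17 in the 8 fits. Hspb1 was at 6.99, 8.06, 6.40 and 5.59 CPM in the first run and at 5.84, 4.65, 4.07 and 4.36 CPM in the second. Heterozygous replicate 3, at 5.84 CPM, overlapped the first run, and the log2 fold change was -0.51 ± 0.17 (SE), which did not pass.

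Dnajb1 and Bag3, which heat is also known to induce, overlapped between the runs. Dnajb1 was at 69.1, 73.0, 71.2 and 79.8 CPM in the first run and at 70.5, 69.5, 77.9 and 67.3 CPM in the second. Its groups overlapped broadly, with a log2 fold change of -0.04 ± 0.06 (SE). Bag3, on chr7:128523616-128546981, was at 8.29, 10.3, 7.56 and 9.39 CPM and at 9.13, 9.01, 5.96 and 7.51 CPM, with a log2 fold change of -0.18 ± 0.14 (SE). That value was close to the one of Hsph1 but had a wider error, and within the libraries labelled wild type the runs of Bag3 did not overlap (difference of mean log2 CPM -0.31, against -0.02 under the heterozygous label). Another gene, 2610306O10Rik, overlaps Bag3 on the same strand. The 6 stress-induced members thus ranged from -0.99 to -0.04.

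The constitutive members were between -0.13 and -0.04 on the log2 scale, and the stress-induced Dnajb1 was nearer to 0 than any of them. Hspa8, at chr9:40800984-40810087, was at 1757, 1801, 1809 and 1998 CPM in the first run and at 1705, 1655, 1712 and 1664 CPM in the second, without overlap, with a log2 fold change of -0.13 ± 0.04 (SE). Hspa5 was at 341, 327, 309 and 352 CPM and at 301, 308, 332 and 271 CPM, with a log2 fold change of -0.13 ± 0.05 (SE) and with overlap. Hsp90aa1 had -0.07 ± 0.05 (SE) and Hspa4 had -0.04 ± 0.05 (SE), and both overlapped. None of the 4 passed. Wild type replicate 2, a male of the first run, had the highest level of 7 of the 10 members, among them all 4 constitutive ones. Without it the log2 fold change between the runs was -0.01 for Hsp90aa1 and -0.09 for Hspa8.

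**Figure D3:**
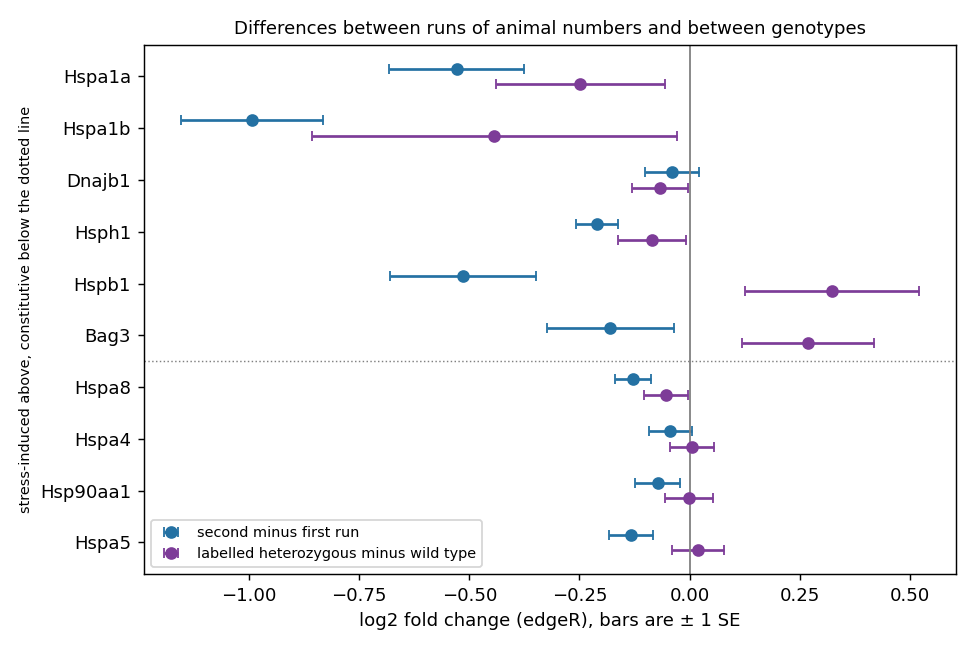
Differences of the members between the runs (blue) and the genotypes (purple). The x axis is the log2 fold change from edgeR with bars of ± 1 SE, and the 6 stress-induced members stand above the dotted line and the 4 constitutive ones below it. The differences between the runs are all below 0, from -0.99 for Hspa1b to -0.04 for Dnajb1, while those between the genotypes lie on both sides of 0.

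The contrast of the classes was taken within each library, as the mean centred log2 CPM of the stress-induced members minus that of the constitutive members. A pseudocount of 0.5 CPM was added. This difference was 0.06, 0.22, 0.24 and 0.06 in the first run (heterozygous replicates 1 and 2, wild type replicates 1 and 2) and -0.19, -0.18, -0.15 and -0.07 in the second. The runs did not overlap and were -0.29 apart, and the genotypes were -0.05 apart and overlapped. The genotype value changed sign, to 0.01, with the reads of Hspa1a and Hspa1b summed, and lay between -0.13 and 0.03 with 1 library left out. Hspa1a, Hspa1b and Hspb1 had the lowest log2 fold changes between the runs among the members. Within the first run the 2 females had 0.22 and 0.24 and the 2 males 0.06 each. In the second run the difference of the sexes was small, with -0.18 and -0.07 in the females and -0.19 and -0.15 in the males.

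**Figure D4:**
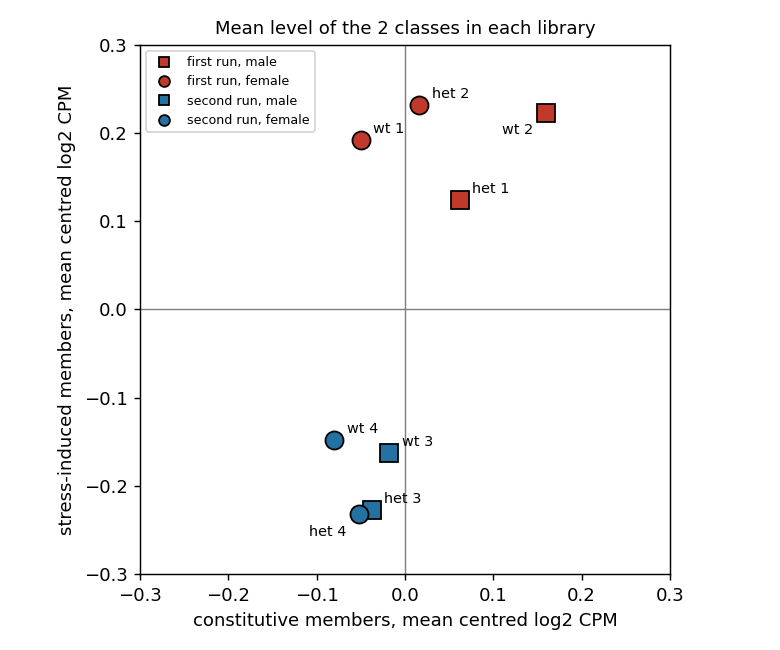
Mean centred log2 CPM of the 4 constitutive members (x axis) and the 6 stress-induced members (y axis) in each library. Squares are males, circles females, red the first and blue the second run, and labels give genotype (het, wt) and replicate. The first run lies between 0.12 and 0.23 on the y axis and the second between -0.23 and -0.15, while the runs overlap on the x axis.

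Within each run the genotype differences of the members were compared as a further check. Hspa1b had a difference of mean log2 CPM, heterozygous minus wild type, of -0.26 in the first run and of -0.69 in the second. Hspb1 had 0.31 and 0.28, Bag3 0.12 and 0.41, and Hspa1a -0.18 and -0.31. In the second run the genotypes of 5 members did not overlap, with Hspa1a, Hspa1b and Hsph1 lower and Hspb1 and Bag3 higher under the heterozygous label, against 37.6% of all genes (19% lower) with 2 libraries against 2. In the first run 2 members did not overlap, Hspa8 lower and Hspb1 higher, against 33.5% of all genes (17.1% lower). The interaction of genotype and run in edgeR called 0 of 10 members, where 0.00721% of all genes (1) were called, and DESeq2 and limma-voom called 0 too. At an unadjusted p under 0.05 there were 0 members, against 4.09% of all genes (2.1% below 0). The interaction was below 0 for 4 members, against 49.6% of all genes, and Hspa1b had an interaction of -0.49 ± 0.32 (SE). The genotype difference of no member was thus shown to differ between the runs.

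The comparison of the sexes was not part of the choice of members. In edgeR 0 of 10 members were called, where 0.0288% of all genes (4) were called (0.0144% lower in males), and DESeq2 and limma-voom called 0 too. Hspa5 alone had an unadjusted p under 0.05 (0.0455, adjusted p 0.9997 in edgeR), against 2.92% of all genes (1.49% lower in males). No member was free of overlap between the sexes, against 1.97% of all genes (0.994% lower in males). Hspa5 had a male minus female log2 fold change of 0.13 ± 0.06 (SE) and Hsp90aa1 one of 0.11 ± 0.05 (SE). All 4 constitutive members had values above 0, with a median of 0.08, and 4 of the 6 stress-induced ones had values below 0. Of all genes, 49.9% had values below 0.

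Other genes of the pathway were taken from 9 lists of heat shock factors, co-chaperones and compartment chaperones, 117 genes without the members, of which 109 were tested. The lists were chosen with earlier results of these libraries known. In the genotype comparison 1 of the 109 was called, Fkbp5, higher under the heterozygous label, where 0.267% of all genes (37) were called. Fkbp5 is an HSP90 co-chaperone that glucocorticoids induce. It was at 47.5, 35.4, 51.4 and 44.3 CPM under the heterozygous label and at 33.8, 31.8, 37.8 and 27.0 CPM under the wild type label. Heterozygous replicate 2 overlapped the wild type libraries, and the log2 fold change was 0.45 ± 0.09 (SE; edgeR adjusted p 0.0302). The median of the 109 was -0.01. Between the runs none of the 109 was called, where 0.382% of all genes were. Of the 109, 76 were below 0 (69.7%, beside 49.1% of all genes), and the median was -0.03. At an unadjusted p under 0.05 there were 13 of the 109 (11.9%, beside 10.2% of all genes), 10 of them lower in the second run.

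Transcripts of the heat shock factors showed little difference between the runs, and the activity of the factors was not measured. Hsf1 was at 41.7 ± 4.20 CPM (SD, n = 4) in the first and 40.3 ± 2.58 CPM in the second run, and Hsf2, a related factor, at 30.1 ± 1.21 and 29.0 ± 2.29 CPM. Of the 19 other heat-induced genes, 16 were below 0 with a median of -0.07. Chordc1, an HSP90 co-chaperone, was at 85.9 ± 9.59 and 73.9 ± 3.41 CPM (-0.21 ± 0.06 SE), and the small heat shock protein gene Hspb8 had the opposite sign (0.28 ± 0.11 SE), at most 11.7 CPM in the first run and at most 15.5 CPM in the second. Neither passed. The 5 tested genes listed with the small heat shock proteins beside Hspb1 had a median of 0.08, with Hspb11, placed there by its symbol, at -0.33.

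Among the chaperones of the endoplasmic reticulum and the unfolded protein response, 21 of 27 tested genes were below 0, with a median of -0.06, and none was called. At an unadjusted p under 0.05 in edgeR there were 6 of the 27, against 10.2% of all genes. Hsp90b1, the HSP90 of this compartment, was at 394 ± 36.7 CPM in the first and 346 ± 6.82 CPM in the second run (-0.18 ± 0.05 SE), and Creld2, a target of the unfolded protein response, at 11.5 ± 1.03 and 9.07 ± 0.763 CPM (-0.35 ± 0.13 SE). The runs of both did not overlap, nor did those of Hyou1, Sel1l and P4hb, named after their values were seen. Of all genes, 5.46% did not overlap. The other lists had medians nearer 0, with no member called. The 14 other HSP70 and HSP110 genes and exchange factors had -0.01, with Hspa4l at -0.09 and St13 at -0.07, and the 20 J-domain co-chaperones had -0.03, with Dnajb2 at 0.16 and Dnajb5 at 0.14. HSP90 and its co-chaperones (16 genes) had -0.04, the 7 tested subunits of the chaperonin TRiC -0.01, with Cct5 at -0.11 and Cct3 at 0.07, and the 11 mitochondrial chaperones -0.01, with Clpx at -0.16 and Trap1 at 0.09.

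Genes that answer to temperature and time of day were given beside the chaperones, since heat shock genes in mouse tissues are known to follow the daily rhythm of body temperature. Both cold-inducible RNA-binding protein genes had higher values in the second run. Cirbp was at 26.7, 28.3, 29.4 and 25.6 CPM in the first run and at 42.2, 36.4, 32.0 and 32.8 CPM in the second, and Rbm3 at 72.6, 74.1, 75.8 and 65.0 CPM and at 96.7, 79.3, 85.1 and 80.3 CPM. Neither gene overlapped between the runs (5.46% of all genes did not), their log2 fold changes were 0.38 ± 0.09 (SE) and 0.25 ± 0.07 (SE), and neither passed. Of 16 clock genes 12 were above 0, and Per1, a light- and hormone-responsive clock gene, was called, where 0.382% of all genes were. Per1 was at 121 ± 6.53 CPM in the first and 143 ± 10.3 CPM in the second run, and its runs overlapped. At an unadjusted p under 0.05 in edgeR there were 8 of the 16, against 10.2% of all genes. The runs of 4 of the 16 did not overlap, against 5.46% of all genes. Named after their values were seen, Dbp was higher in the second run (0.36), and Arntl (-0.29), Npas2 (-0.24) and Clock (-0.11) were lower. The 21 tested immediate early genes had a median of 0.03 with none called, Egr3 at -0.23 and Zfp36 at -0.70. The part of these genes in the values of the chaperones was not tested.

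**Figure D5:**
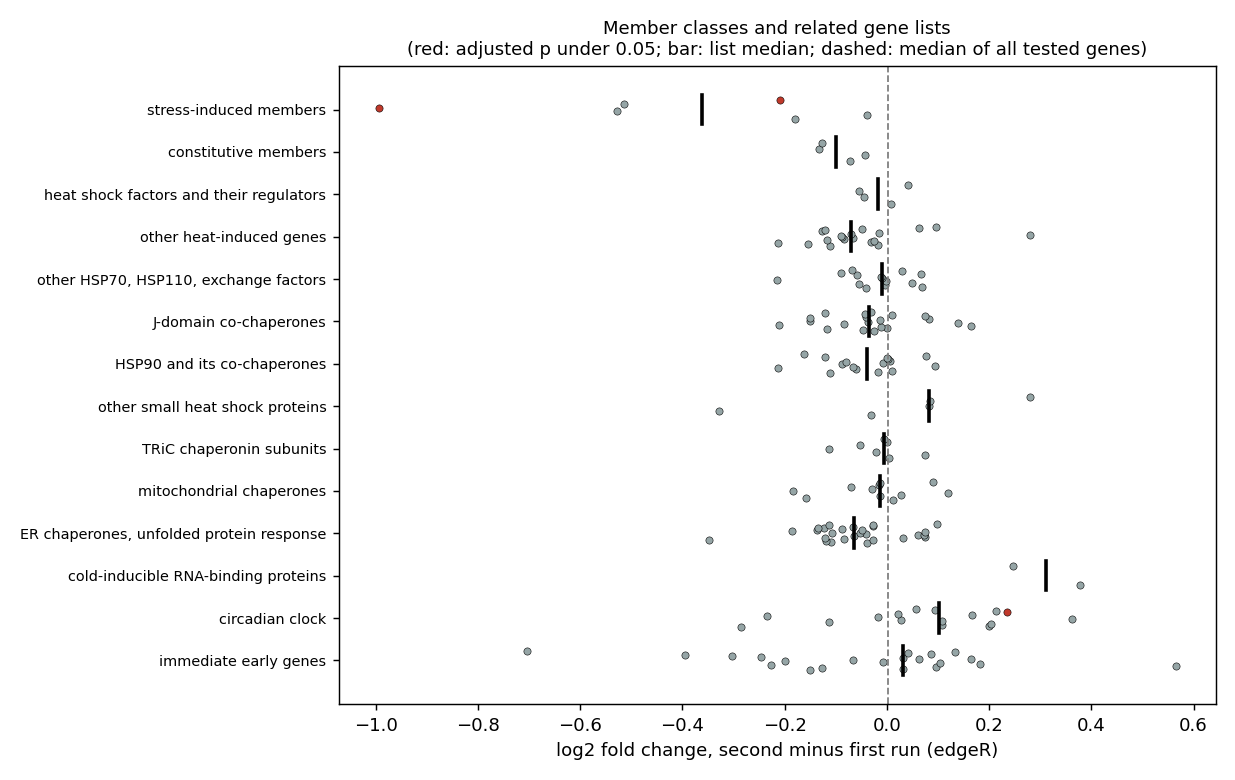
Differences between the runs for the member classes and the related gene lists. The x axis is the log2 fold change of the second against the first run, each point is a gene, red points passed an adjusted p of 0.05 in edgeR's test, black bars are list medians and the dashed line is the median of all tested genes (0.002). The stress-induced members reach furthest to the left, the endoplasmic reticulum list has a median of -0.06, and the cold-inducible genes lie to the right at 0.25 and 0.38.

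Markers of other cells differed between the runs as well. The 5 markers of endothelial cells, which line blood vessels, were all below 0 with a median log2 fold change of -0.45 and 1 called, Pecam1 (0.382% of all genes). Their summed level was 165 to 191 CPM in the first run and 119 to 164 CPM in the second, and none was at 0. The 5 markers of red blood cells were all below 0 as well (median -0.45, none called, 63.9 to 112 CPM against 35.2 to 73.7 CPM). By genotype the endothelial sums were 119 to 191 CPM under the heterozygous and 124 to 172 CPM under the wild type label, and the red blood cell sums 35.2 to 74.7 and 63.9 to 112 CPM (median -0.40). Hippocampal markers had a genotype median of 0.31 with 2 of 4 tested called, against 0.267% of all genes. Thalamic markers had a genotype median of -0.03 with 1 of 5 called. The marker lists were chosen with earlier results of these libraries known, so their counts are a description and support nothing. Markers of the choroid plexus (3 tested) and of meningeal fibroblasts had genotype medians of 0.56 and 0.26 with none called. Between the runs, markers of pericytes and smooth muscle had a median of -0.19, and those of excitatory neurons, astrocytes, oligodendrocytes and microglia medians of -0.05, 0.08, 0.09 and -0.02. Fibroblast markers of the meninges had a median of 0.32 with 0 of 5 below 0, striatal markers, a sign of the dissection, one of -0.27 with 4 of 4 below 0, and inhibitory neurons one of 0.04 with 1 called, Sst. The part of these cells and regions in the lower levels of Hspa1a, Hspa1b, Hsph1 and Hspb1 in the second run, and in the genotype values, was not tested.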

How the data were processed

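Messenger RNA of the whole cortex was sequenced after poly-A selection in 8 mice, per the labels. Raw counts of reads, 1 row per gene symbol, are what the authors deposited, made with STAR 2.5.2b and HTSeq on mm10 per the submitters' processing notes; the sources used here give no annotation, strand setting or filter. All further values were computed from these counts. The filterByExpr function of edgeR (minimum count 10) left 13879 of 22000 genes, and libraries were scaled by TMM. Genotype and sex were tested by robust quasi-likelihood fits in edgeR 4.0.16 (R 4.3.3), with sex and genotype as terms, the run of animal numbers with run added, and the interaction of genotype and run in a further fit. Benjamini-Hochberg adjustment ran over all genes. The pipeline was tested on simulated counts. No 2 libraries of a genotype agreed within sampling noise (lowest chi-square per degree of freedom 4.12).

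The members and gene lists were chosen with earlier results of these data known. Of the lists, all members were to be named, with genes called by genotype or run (up to 4 per list and comparison) or, where none was called, the 2 with the smallest p between the runs, and the 8 genes most like the stress-induced members. Coordinates are from GENCODE release M21 (GRCm38), the assembly mm10 stands for. Exon lengths are the union of all annotated exons. Alternatives were DESeq2 (1.42.0) size factors and Wald test, limma-voom (limma 3.58.1), no filter, other covariates, single runs or genotypes, and each library left out.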

Additional observations from a re-analysis of the deposited data

How the results depend on the processing

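The count of 0 called members held in every alternative run for the genotypes (16 alternatives), the sexes (12) and the interaction (12). At an unadjusted p under 0.05 at most 2 members passed by genotype (second run alone), 3 by sex and 1 by interaction. The share of all genes at that threshold was taken in the main fits alone (7.24%, 2.92% and 4.09%). Counts of members at that threshold in the alternatives thus have no share beside them and are not read as a result. The 2 members called between the runs became 1 with limma-voom, with no covariate and in the libraries labelled heterozygous alone, and 0 in those labelled wild type alone. With 1 library left out the count was 0 to 2, and it was 0 without heterozygous replicate 4. Fewer libraries enter the fits of single genotypes and the left-out fits. The cause of the other changes was not tested. All 10 members stayed below 0 between the runs in every alternative. Genotype signs turned for members near 0. Hsp90aa1 had 0.000348 with DESeq2 size factors and with the DESeq2 Wald test, 0.00288 with limma-voom, 1.63e-05 with run as a further covariate and 0.0301 in the second run alone, where Hspa4 had -0.0284. With 1 library left out the genotype log2 fold change was -0.0488 to 0.0663 for Hsp90aa1, -0.0200 to 0.0347 for Hspa4, -0.0388 to 0.0768 for Hspa5 and -0.0879 to 0.00153 for Hspa8. The class difference between the runs lay between -0.32 and -0.23 in all alternatives, among them Hsp90aa1 counted with the stress-induced members. With 1 library left out the class difference between the genotypes was -0.13 to 0.03. Over all genes, the counts called by genotype were 37 and 19 to 82 in the alternatives, and between the runs 53 and 8 to 95. No fit of matched pairs was run, and the labels give the genotypes no shared replicate numbers. Each run and sex holds 1 mouse of each genotype, and the fit with sex and run as terms called 0 members by genotype, with 1, Hspa1b, at an unadjusted p under 0.05. Depth limits Hspa1a, Hspa1b, Hspb1 and Bag3, which had at most 200 reads in a library.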

Other observations

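The 8 genes whose pattern over the 8 libraries was most like the mean of the stress-induced members, out of 12852 genes searched, were Dio2, Dynlt1, Slc30a9, Jcad, Nbeal1, RP24-408B13.1, Eif4g2 and Cap1. Their Pearson r lay between 0.945 and 0.969, as a description with no test, since the libraries share the division into runs and so many genes were searched. Dio2, which codes for the deiodinase that activates thyroid hormone, had a log2 fold change of -0.42 between the runs, Dynlt1, a dynein light chain gene, one of -1.35, and Jcad, a gene of endothelial cell junctions, one of -0.26.

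Hspa1a and Hspa1b lie on chromosome 17 among genes of the major histocompatibility complex. Of the 38 other tested genes within 500 kb of Hspa1b, none was called between the runs, 20 were below 0 and the median log2 fold change was -0.003. The 3 with an unadjusted p under 0.05, named after their values were seen, were H2-Q4 (-0.80), Abhd16a (0.18) and Notch4 (-0.44). The window was chosen after the data had been seen.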
